A study of Mus musculus with 6 samples.

Results

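Gfap, Vim and Nes encode intermediate filament proteins that are used together to describe the astrocytes and stem cells of the dentate gyrus (DG), and they were examined here in all 6 arrays of a mouse experiment on kainic acid-induced status epilepticus (KA-SE). The members were all probes that the array annotation assigned to these genes, 6 probes for 3 genes out of 45281 probes and 19057 named genes. Each gene had 2 probes. The genes were selected on their KA-SE minus saline difference, which was known from earlier results of these arrays, so that difference is given as a description and no test of it is printed.

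Within the hippocampus, the DG contains the granule neurons and a niche of adult neural stem cells. Male C57/Black6J mice aged 6 to 8 weeks received either repeated low doses of kainic acid, a glutamate receptor agonist that provokes seizures, or matching saline by intraperitoneal injection. Only KA-treated mice that had shown sustained severe seizures were kept, as the study's methods state, and the right DG was taken 72 h after the injections. There were 3 saline and 3 KA-SE mice, with 1 array for each and no genetic modification in either group. Dissection enriched the DG but left all of its cell types in the sample, so that more cells of a type and more RNA per cell cannot be told apart.

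Intermediate filaments are rope-like polymers of the cytoskeleton. GFAP is the main filament protein of mature astrocytes and is also made by the radial stem cells of the DG. Vimentin can form filaments with GFAP in astrocytes, and is made as well by endothelial cells, microglia, ependymal cells and fibroblasts. Nestin does not form filaments alone but assembles with vimentin, and it marks neural stem and progenitor cells and some cells of the vessel wall. Higher GFAP and vimentin levels are a textbook sign of astrocytes reacting to injury or seizures.

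The promoters of the genes are shown because Gfap and Vim were high on the same arrays while Nes was not. They run from 250 bases before to 10 bases after the transcription start of the RefSeq gene models on GRCm38.p6, and all 3 genes were matched. Gfap lies on the minus strand (chr11:102897191-102897450), and Vim (chr2:13574061-13574320) and Nes (chr3:87970843-87971102) lie on the plus strand. The sequences read 5′ to 3′ along the gene, and capitals mark the motifs found.
Gfap: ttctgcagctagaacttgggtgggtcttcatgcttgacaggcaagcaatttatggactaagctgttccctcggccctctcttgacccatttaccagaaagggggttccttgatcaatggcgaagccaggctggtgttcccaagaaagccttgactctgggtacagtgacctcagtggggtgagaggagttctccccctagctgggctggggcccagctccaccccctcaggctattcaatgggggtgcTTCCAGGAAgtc
Vim: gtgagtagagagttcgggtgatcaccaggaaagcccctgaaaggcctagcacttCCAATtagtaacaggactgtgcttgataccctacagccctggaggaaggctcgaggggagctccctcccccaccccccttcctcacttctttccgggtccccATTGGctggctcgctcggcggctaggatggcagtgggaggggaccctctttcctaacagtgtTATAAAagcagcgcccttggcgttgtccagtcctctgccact
Nes: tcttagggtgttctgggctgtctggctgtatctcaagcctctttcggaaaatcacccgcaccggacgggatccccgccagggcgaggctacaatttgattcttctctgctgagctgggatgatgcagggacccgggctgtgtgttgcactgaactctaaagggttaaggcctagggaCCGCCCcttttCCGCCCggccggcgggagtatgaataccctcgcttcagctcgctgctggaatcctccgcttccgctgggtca

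Motifs were searched on both strands of the 300 bases from 250 before to 50 after the start, in these promoters and in the same window of 32851 promoters. The Gfap promoter held a match to the STAT element (TTCNNNGAA) that began 2 bases before the start, as did 8.3% of all promoters. In Vim, a TATA box (TATAAA) began 32 bases before the start, as found somewhere in the window of 13.6% of promoters, and CCAAT motifs began 196 and, on the other strand, 94 bases before it. CCAAT occurred in 37.4% of promoters. Nes held the GC box (GGGCGG) on its other strand, 73 and 62 bases before the start, a motif of 35.7% of promoters. None of the other motifs among the 9 searched was found in these 3 windows, namely the AP-1 element (TGANTCA), the cAMP response element (TGACGTCA), the E-box (CANNTG), the NFI half-site (TTGGCA) and the SOX element (ACAATG). AP-1 elements were present in 7.81%, cAMP response elements in 1.79%, E-boxes in 72.3%, NFI half-sites in 14.1% and SOX elements in 12.6% of all promoters. The 3 genes thus shared none of these motifs in the windows. A match is a description of letters, and binding was not measured.

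Signals are given as log2 values after background correction and quantile normalization, on which a difference of 1 is a 2-fold difference. A probe counts as detected on an array where its detection p-value, from the array's negative controls, is under 0.05. Both Gfap probes, 1 Vim probe and 1 Nes probe were detected on all 6 arrays. Levels of different probes are not set against each other.

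Gfap, the astrocyte filament gene, was higher in KA-SE by both of its probes, 3.72-fold by one and 4.79-fold by the other. The brighter probe (ILMN_1215847) had log2 signals of 11.40, 11.28 and 11.43 on saline replicates 1, 2 and 3, and of 12.99, 13.35 and 13.46 on the KA-SE replicates. All KA-SE arrays lay above all saline arrays, and the gap of 1.56 between the closest arrays of the 2 groups was wider than the range within either group. Group means were 11.37 ± 0.08 in saline and 13.27 ± 0.24 in KA-SE (SD, n = 3 each). This is a log2 difference of 1.89 ± 0.15 (SE from the spread of the arrays), or 3.72-fold. Before normalization the same probe read 2883, 2077 and 3801 intensity units in saline and 7288, 9577 and 11361 in KA-SE, against the highest intensities of any probe of 31594 to 41974 units on the 6 arrays.

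The other Gfap probe (ILMN_1214715), which is assigned to the same transcript record (NM_010277), gave log2 signals of 8.38, 8.50 and 8.44 in saline and of 10.49, 10.65 and 10.97 in KA-SE. Again the groups did not overlap, with a gap of 1.99. Its means were 8.44 ± 0.06 and 10.70 ± 0.24 (SD, n = 3 each), a difference of 2.26 ± 0.14 (SE) or 4.79-fold. Of all 21226 probes that were detected on every array of at least 1 group, it had the highest difference, and the brighter probe ranked 3rd. The Gfap probes differed from each other by 0.36 in their log2 difference, with the lower value at the brighter probe.

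Vim, which encodes vimentin, was higher in KA-SE by its detected probe (ILMN_2451022), with more spread between mice than Gfap. Log2 signals were 7.75, 8.11 and 7.92 in saline and 8.89, 9.45 and 10.09 in KA-SE. The groups did not overlap, but the gap of 0.77 was smaller than the range of the KA-SE arrays. KA-SE replicate 1 was 1.94-fold above the saline mean and KA-SE replicate 3 was 4.48-fold above it. Means were 7.93 ± 0.18 in saline and 9.48 ± 0.60 in KA-SE (SD, n = 3 each), a difference of 1.55 ± 0.36 (SE) or 2.92-fold, the 11th highest of the 21226 probes. For Gfap, the corresponding folds on KA-SE replicates 1 and 3 were 3.07 and 4.25 by the brighter probe. Both genes were thus lowest in the KA-SE group on replicate 1 and highest on replicate 3.

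The other Vim probe (ILMN_1232980), assigned to a separate cDNA record (AK033175), was detected on 0 of the 6 arrays. Its log2 signals of 4.27, 4.51 and 4.44 in saline and 4.28, 4.31 and 4.35 in KA-SE lay below the limit of detection, so no fold can be given.

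Nes, which encodes nestin, differed by less than the spread between mice. The detected probe (ILMN_2703267) gave 5.83, 5.96 and 5.78 in saline and 5.78, 5.70 and 5.90 in KA-SE, and the groups overlapped. Means were 5.86 ± 0.09 and 5.79 ± 0.10 (SD, n = 3 each), a difference of -0.07 ± 0.08 (SE). In raw intensity the probe read 84.3, 75.7 and 105 units in saline and 79.2, 71.2 and 85.0 in KA-SE, close to the array medians of 47.8 to 63.0 units. At such a low signal and with 3 arrays a group, a small difference in Nes would not be detectable.

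The other Nes probe (ILMN_2904590) shares the transcript record NM_016701. It was detected on 1 array, KA-SE replicate 3, at a log2 signal of 4.91. Its other values were 4.47, 4.29 and 4.43 in saline and 4.36 and 4.44 in KA-SE, all below the limit of detection, and no fold is given. KA-SE replicate 3 was also the KA-SE array with the highest value at the detected Nes probe, where it lay within the saline range.

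**Figure D1:**
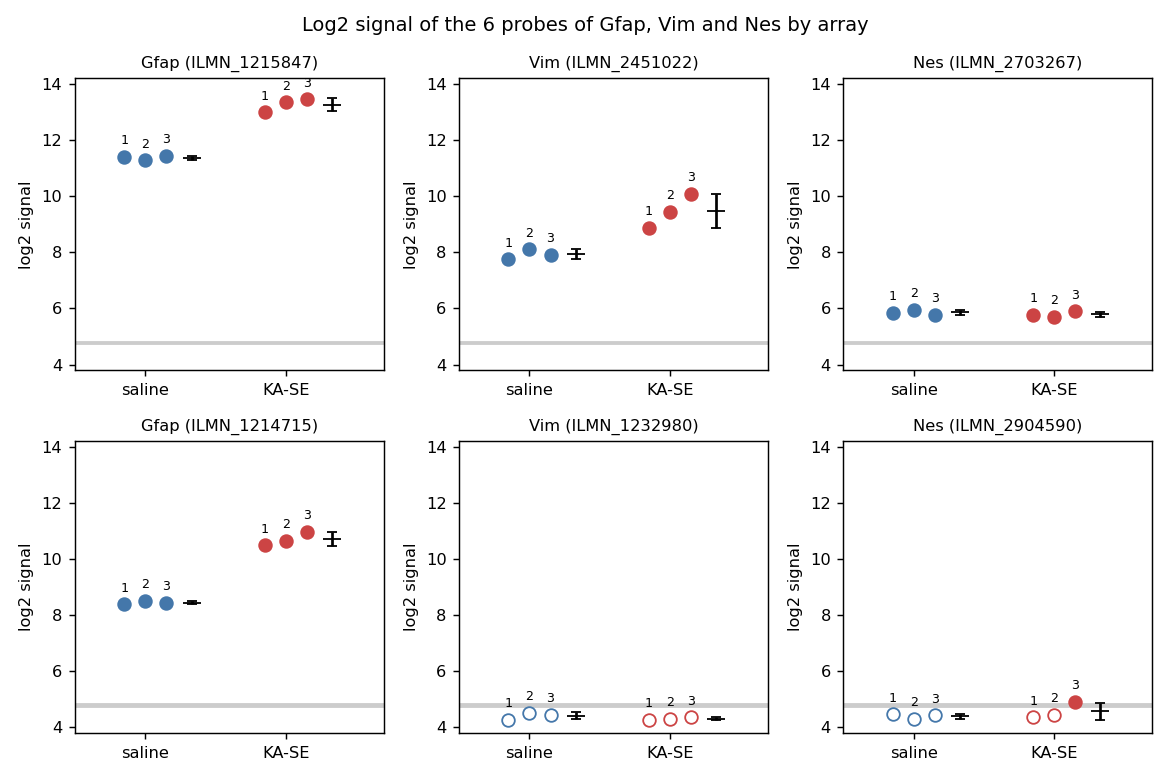
Log2 signal of each probe of Gfap, Vim and Nes by group, with points numbered by replicate, filled where the probe was detected and open where it was not, and with the group mean ± SD (n = 3) in black; the gray band spans the lowest detected signals of the 6 arrays. Both Gfap probes and the upper Vim probe have all KA-SE arrays above all saline arrays, while the Nes probes and the lower Vim probe lie low in both groups.

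Of the 4 probes detected on all arrays, 3 had every KA-SE value above every saline value. The same was true of 7.33% of all 21226 probes tested, and since the genes were chosen by this contrast the count is not read further. The log2 differences were also taken with the arrays processed in other ways and with each array left out, and they varied most for Vim. On the log2 scale they ranged from 1.78 to 2.08 for Gfap, from 2.13 to 2.37 for its dimmer probe, from 1.24 to 1.84 for Vim and from -0.12 to -0.02 for Nes. The lowest and highest Vim values came from leaving out KA-SE replicate 3 and KA-SE replicate 1. Median scaling lowered the median of all genes to -0.10, and Gfap and Vim stayed at or above 1.41 there.

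**Figure D2:**
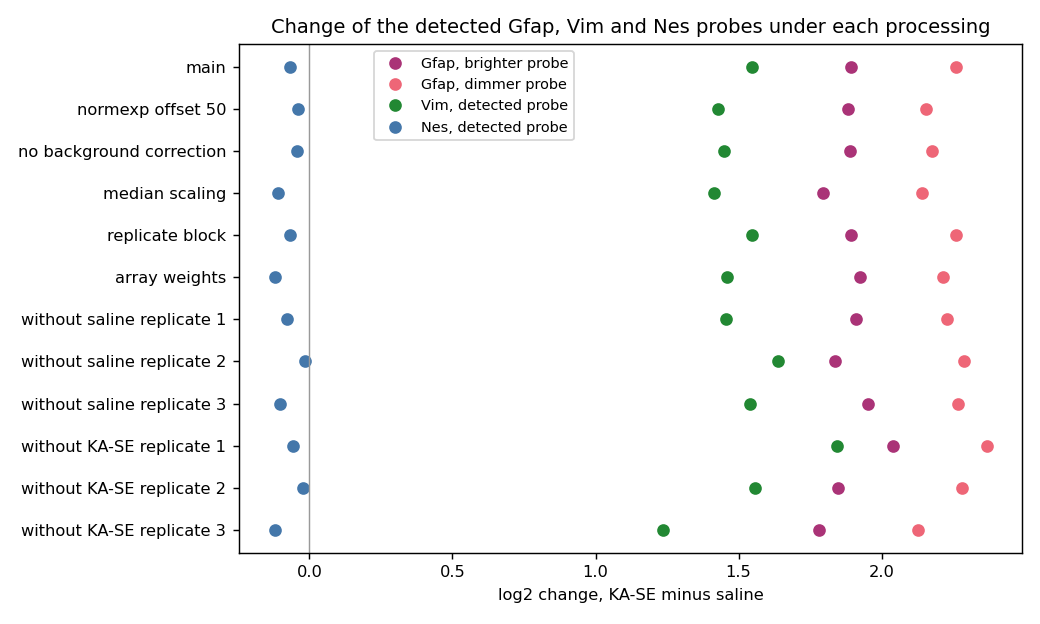
Log2 difference, KA-SE minus saline, of the detected probes of Gfap, Vim and Nes (x axis) under each way of processing the arrays or with an array left out (y axis), with "main" for the values in the text. The Nes values stay between -0.12 and -0.02 while those of Vim range from 1.24 to 1.84.

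Gfap and Vim were then compared by array with each other and with 11221 other genes. Each gene was taken by its brightest tested probe relative to its saline mean, and likeness was the root mean square difference over the 6 arrays, in log2 units, a measure in which both groups take part. The KA-SE minus saline difference, by which the genes were selected, enters this measure, so its values and counts are given as a description. Gfap and Vim differed by 0.36, and 4 genes were closer to Gfap than Vim was. These were C4a (0.13) and C4b (0.25), near-identical complement genes whose probes may not tell them apart, the protease inhibitor gene Serpina3n (0.25) and Glycam1 (0.30), which was detected on 1 of the 3 saline arrays. The dimmer Gfap probe differed from the brighter by 0.28.

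The genes most like Vim were the glycoprotein gene Gpnmb (0.16), Serpina3n (0.17), C4b (0.21), the neuropeptide gene Gal (0.23) and Hspb6 (0.24), which encodes a small heat shock protein, and 15 genes were closer to it than Gfap. Nes differed by 1.40 from Gfap and by 1.19 from Vim. Its nearest genes were Copb2 (0.03), Ttbk1 (0.03), Slc6a9 (0.03), Snrk (0.04) and Cenpv (0.04), which like Nes stayed within about 0.2 of their saline mean on every array.

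**Figure D3:**
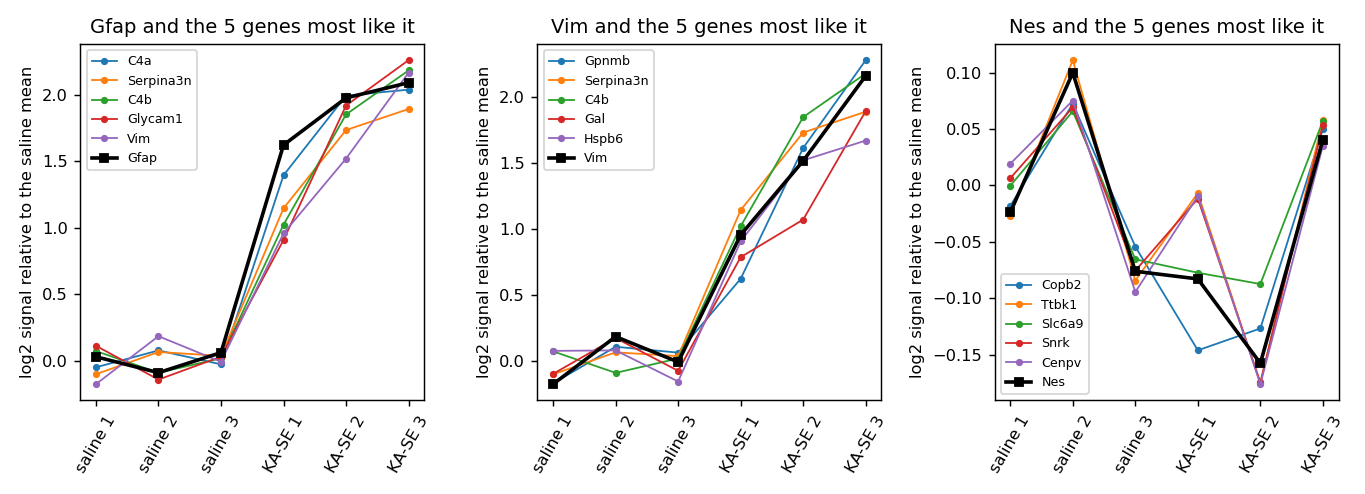
Log2 signal relative to the saline mean on each array for Gfap, Vim and Nes (black) and for the 5 genes most like each; replicates have no order and the lines only join values of 1 gene. The Gfap and Vim panels span more than 2 log2 units and the Nes panel less than 0.3.

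The other members of the filament family had log2 differences between -0.48 and 0.44. Of 41 other genes for keratins, lamins, neurofilaments and related proteins, 39 were on the array and 21 were detected well enough to be tested. None passed a limma adjusted p of 0.05, 2 were higher and 2 lower at an unadjusted p under 0.05, and their median log2 difference was -0.06 (-0.10 without saline replicate 3 and -0.01 without KA-SE replicate 1). Over all 11222 genes tested, 0.294% passed higher and 0.0178% passed lower, 5.85% and 2.59% did so at the unadjusted threshold, and the median was -0.0011. In this list 7 of 21 genes had positive values, against 49.7% of all genes.

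The genes with the smallest p-values in the filament family were the skin keratin gene Krt73 (-0.48 ± 0.16), the lens filament gene Bfsp2 (0.40 ± 0.14) and the keratin genes Krt2 (0.44 ± 0.18) and Krt12 (-0.40 ± 0.17), with the moderated SE and limma adjusted p from 0.409 to 0.565. Closer relatives of the 3 genes are named here after their values were seen. Desmin (Des), the muscle counterpart of vimentin, had a log2 difference of 0.06, the neuronal filament genes Nefm and Ina had -0.04 and 0.07, and Synm, whose product joins vimentin filaments, had -0.28 with other probes up to 0.04. The 6 probes of the nuclear lamin gene Lmna spanned -0.22 to 0.05. Nefl, which encodes the light neurofilament chain, had no probe that passed the filter.

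**Figure D4:**
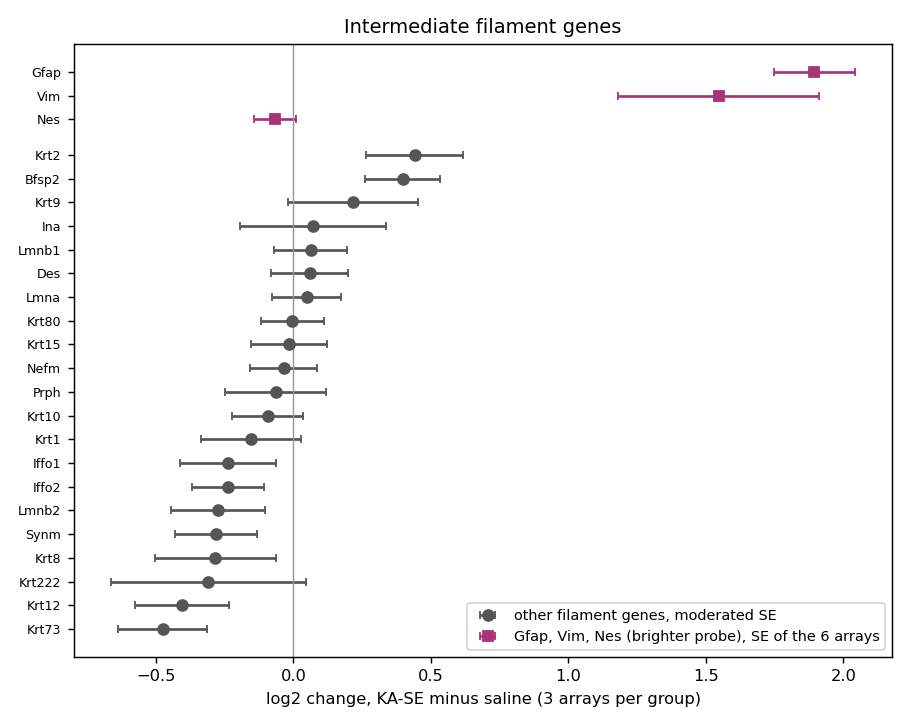
Log2 difference, KA-SE minus saline (x axis, 3 arrays per group), of the 21 tested genes of the intermediate filament family (gray circles, moderated SE) and of Gfap, Vim and Nes (squares, SE from the spread of the 6 arrays). The gray points lie between -0.48 and 0.44, below Gfap (1.89) and Vim (1.55).

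Proteins that link, fold or modify filaments formed the second list, with 28 of 35 genes tested. Hspb6, which encodes a small heat shock protein of the crystallin family, was the 1 gene called in limma, against 0.294% of all genes called higher. Its log2 signals were 9.16, 9.17 and 8.93 in saline and 9.99, 10.61 and 10.76 in KA-SE, with no overlap, a log2 difference of 1.37 ± 0.18 and a 2.58-fold rise (limma adjusted p = 0.0253). Leaving out saline replicate 1, 2 or 3 ended this call, at an adjusted p of 0.0947, 0.0862 and 0.132, as did leaving out KA-SE replicate 2 (0.0839) or 3 (0.0824). With KA-SE replicate 1 left out the adjusted p was 0.00294, and it was 0.258 with no filter on dim probes.

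Other members of this list did not pass. The periplakin gene Ppl, a linker of filaments to junctions, had a log2 difference of 0.60 but a second probe at -0.03, and the chaperone partner gene Bag3 had 0.33 (adjusted p = 0.171 and 0.625). Cdk1, whose kinase phosphorylates vimentin in dividing cells, was detected on 0 saline and 3 KA-SE arrays and was at least 1.21-fold higher in KA-SE (adjusted p = 0.313). The linker plectin (Plec) lay at -0.01, and the related small heat shock genes Cryab and Hspb1 at 0.11 and -0.22. The median over the list was 0.04, and 20 of 28 genes were positive, against 49.7% of all genes. At an unadjusted p under 0.05, 3 were higher and 0 lower, against 5.85% and 2.59% of all genes. Cdk1 was 1 of these 3 and met the filter only through the KA-SE arrays.

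Transcriptional regulators known to act on Gfap, Vim or Nes were the third list. None of 35 tested genes passed in limma, and the median was 0.12 (0.06 without saline replicate 3). Among the 35, 9 were higher and 1 was lower at an unadjusted p under 0.05, against 5.85% and 2.59% of all genes. Of the 9, the receptor gene Lifr met the filter only through the KA-SE arrays. The smallest p-values belonged to Socs3, a feedback inhibitor of JAK-STAT signalling (0.59 ± 0.15), and Stat3, the transcription factor that activates Gfap in astrocytes (0.39 ± 0.12, with its other probes from 0.31 upward). They were followed by the Notch target gene Hes5 (-0.39 ± 0.13) and the glial factor gene Sox9 (0.39 ± 0.13), and the adjusted p-values of these 4 genes ran from 0.236 to 0.408. With median scaling the median of this list was -0.0012, against -0.10 over all genes.

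The tested genes of a list of other astrocyte markers had log2 differences between -0.37 and 0.64. Serpina3n (1.59) and C4b (1.68), named above as close to Gfap and Vim, were not among them. Of 32 markers that are not filament genes, 28 were tested and none passed in limma. Of the 28, 9 were higher and 2 lower at an unadjusted p under 0.05, against 5.85% and 2.59% of all genes. Positive values were found for 23, against 49.7% of all genes, with a median of 0.18. With median scaling the median was 0.06, against -0.10 over all genes. The glutamate transporter gene Slc1a2 had 0.64 ± 0.12 (adjusted p = 0.0844), but its 3 probes spanned 0.0025 to 0.64. It passed with a normexp offset of 50 (0.0489), with no background correction (0.0422) and with array weights (0.0419), and it was the 1 gene of this list called in any alternative. The glycogen regulator gene Ppp1r3c had 0.47, the gap junction gene Gjb6 0.45 and the phagocytosis bridge gene Mfge8 -0.37 (adjusted p = 0.176, 0.323 and 0.324). The defining astrocyte markers Aqp4, Aldh1l1, Slc1a2, Slc1a3, S100b, Gjb6, Gja1 and Aldoc were detected on all 6 arrays. Summed over the list, linear signal ran from 75919 to 79453 in saline and from 88048 to 88668 in KA-SE, which moved in the direction of Gfap, and its part in the Gfap difference was not tested.

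Neural stem and progenitor genes, with which Nes is usually grouped, had a median of 0.15 over 17 tested genes, of which none passed in limma. This median was 0.03 without saline replicate 3, 0.05 without KA-SE replicate 1 and -0.0075 over genes detected on all 6 arrays. Median scaling gave 0.03, where all genes had a median of -0.10. In this list 3 genes were higher and 1 was lower at an unadjusted p under 0.05, against 5.85% and 2.59% of all genes. Of the 3, Cdk1 and Msi1 met the detection filter only through the KA-SE arrays, where they are high, so the filter favoured their direction. Beside Hes5 and Cdk1, the stem cell factor gene Sox2 had 0.38 and the RNA-binding protein gene Msi1 0.30, detected on 1 of 3 saline arrays (adjusted p = 0.464 and 0.603). Hopx was detected on all arrays with a log2 difference of -0.13, and Fabp7 was not tested. Summed signal overlapped between the groups, at 6033 to 7236 in saline and 5823 to 8132 in KA-SE.

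Markers of other cells that make vimentin were set beside the Vim values. Microglia and macrophage genes were the list that moved most, with all 21 tested genes positive, a median of 0.63, and a summed signal of 7497 to 7648 in saline and 10265 to 15011 in KA-SE. At an unadjusted p under 0.05, 18 were higher and 0 lower, and 3 passed higher in limma. Over all genes 49.7% were positive, 5.85% were higher and 2.59% lower at the unadjusted threshold, and 0.294% passed higher. The Fc receptor gene Fcgr3 (1.29 ± 0.17), the receptor gene Gpr34 (0.85 ± 0.12) and the perforin-like gene Mpeg1 (1.28 ± 0.19) rose (limma adjusted p = 0.0251, 0.0259 and 0.0337), and Cd14 had 0.74 (0.0547). None of the 3 calls held when a saline array, KA-SE replicate 2 or KA-SE replicate 3 was left out, and without KA-SE replicate 1 the 5 genes that passed were Fcgr3, Mpeg1, Cd14, C1qb and C1qc. On KA-SE replicates 1, 2 and 3 the median of the list lay at 0.47, 0.53 and 1.00 relative to saline. Its highest array was also the highest array of Vim, but this order is not particular to microglia. KA-SE replicate 3 was the highest KA-SE array for Gfap and the detected Nes probe as well. The same held for the median of every other list except those of stem and progenitor cells and of oligodendrocytes. The defining markers Aif1, Cx3cr1, P2ry12 and Csf1r were detected on all arrays. The part of these cells in the Vim difference was not tested.

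Endothelial and mural cell genes had a median of 0.12 over 25 tested genes, none of which passed in limma. Of these genes, 2 were higher and 1 lower at an unadjusted p under 0.05, against 5.85% and 2.59% of all genes. The lower one was Kcnj8, which met the filter only through the saline arrays. Summed signals of the list were 4624 to 5303 in saline and 4863 to 6121 in KA-SE. Omitting saline replicate 2 gave a median of 0.07, and omitting KA-SE replicates 2 and 3 gave 0.18 and 0.03. The glucose transporter gene Slc2a1 had 0.30, Eng 0.35 and Esam 0.23, and the pericyte channel gene Kcnj8 was detected on all saline arrays but on 0 KA-SE arrays (adjusted p from 0.495 to 0.644). Cldn5, Pecam1, Flt1, Pdgfrb, Rgs5 and Vtn, which define these cells, were detected on all arrays. Of 10 meningeal and fibroblast genes, the matrix proteoglycan gene Bgn rose (1.14 ± 0.17, limma adjusted p = 0.0372), a call lost whichever array was left out. Ogn (-0.64), Slc22a6 (-0.65) and Aldh1a2 (-0.23) did not pass, the median was -0.05 (0.18 without saline replicate 1 and -0.13 without saline replicate 2) and summed signals were 2161 to 3424 and 2845 to 3366. The defining fibroblast markers Dcn (0.22), Col1a1 (0.30) and Lum (0.26) were detected on all arrays and did not pass. In this list 5 of 10 genes were positive, against 49.7% of all genes. It had 1 gene higher and 2 lower at an unadjusted p under 0.05, against 5.85% and 2.59% of all genes. Bgn was the 1 gene called, against 0.294% of all genes called higher in limma.

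Choroid plexus and ependymal genes differed most between saline arrays. Their summed signal ranged from 1455 to 33071 in saline and from 11443 to 14902 in KA-SE. Of 12 tested genes none was called in limma and 1 was higher at an unadjusted p under 0.05, against 5.85% of all genes. Their median difference was 0.01. That median rested on single arrays, since omitting saline replicates 1, 2 and 3 in turn gave 0.43, -0.55 and -0.11, and omitting the KA-SE replicates gave 0.19, -0.10 and -0.02. The defining markers Folr1 (-0.23), Kl (-0.33) and Foxj1 (0.12) were detected on all arrays, and 6 of the 12 genes were positive, against 49.7% of all genes. Ttr, the transport protein gene of the choroid plexus, read 14.85, 7.82 and 13.32 on saline replicates 1, 2 and 3 and 13.28, 13.64 and 13.43 in KA-SE. Saline replicate 2, with the lowest Ttr, had the highest Vim of the saline arrays and saline replicate 1, with the highest Ttr, the lowest. Vim had a log2 difference of 1.46 without saline replicate 1 and of 1.64 without saline replicate 2. The part of these cells in the Vim difference was not tested. Rarres2 (0.48, adjusted p = 0.441) was the gene of this list with the smallest p-value, and its other probes had 0.04 and 0.50.

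Granule cells, the main neurons of the tissue, and oligodendrocytes were the last lists. Granule cell genes had a median of -0.07 (-0.13 without saline replicate 1, -0.01 without saline replicate 3) over 10 tested genes. None was called in limma, and 1 was higher at an unadjusted p under 0.05, against 5.85% of all genes. Their summed signal was 13404 to 15803 in saline and 14648 to 16094 in KA-SE. Their markers Prox1 (-0.23) and C1ql2 (0.29) were detected on all arrays, the probes named Calb1 and Tdo2 on 0 arrays, and no probe was named Dsp here. In the oligodendrocyte lineage, with a median of 0.23 over 14 genes, Bmp4 rose (1.04, limma adjusted p = 0.0381) but passed in only 1 of the 6 fits with an array left out, the one without KA-SE replicate 2. Gpr17 (1.28), Nkx2-2 (0.76, with another probe at 0.20) and Enpp6 (0.49) did not pass, and summed signals were 57176 to 59206 and 62319 to 66980. Of the 14 genes, 13 were positive, against 49.7% of all genes, and Bmp4 was the 1 called, against 0.294% of all genes called higher. At an unadjusted p under 0.05, 5 were higher and 0 lower, against 5.85% and 2.59% of all genes.

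**Figure D5:**
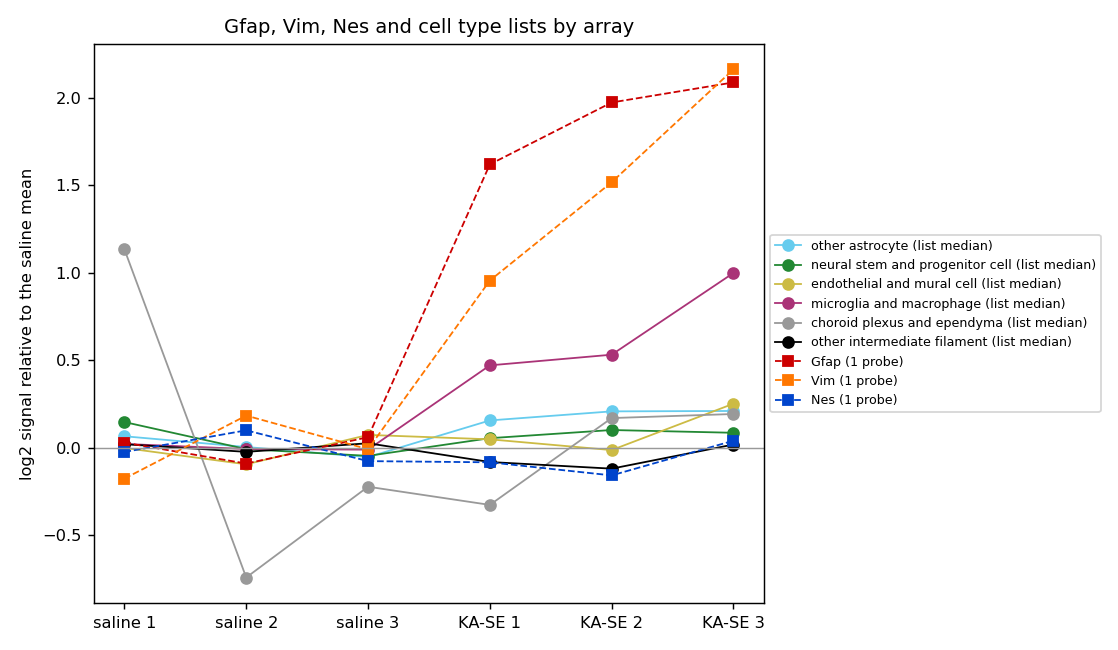
Log2 signal relative to the saline mean on each array for Gfap, Vim and Nes (squares, 1 probe each) and the median of the tested genes of 6 lists (circles); replicates have no order and the lines only join values of 1 gene or list. The microglia and macrophage median reaches 0.47 to 1.00 on the KA-SE arrays, below Gfap and Vim, and the choroid plexus and ependyma median spreads widely on the saline arrays.

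On each array 48.1% to 50.3% of the probes were detected. Arrays of identical values were not found, and across probes the lowest correlation between arrays was 0.992 within saline and 0.988 within KA-SE. Over all 21226 probes tested, 45 were higher and 4 lower in KA-SE at a limma adjusted p under 0.05, or 63 and 15 with median scaling.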

How the data were processed

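Total RNA from the right DG of 3 saline and 3 KA-SE mice was labelled and measured on Illumina MouseWG-6 beadchips, with an array for each mouse. The deposited raw table gives, for each probe and array, a linear intensity without background subtraction. With each value the authors deposited its detection p-value. The values of another deposited table, here named score, were background-corrected, transformed and normalized by the authors from the same arrays. Neither the log base nor the offset of these scores is known. Their direction is that of the raw values, and they served as an alternative. Versions of their software: not given in the sources used here.

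Sample titles gave the groups. The names of 2 raw KA-SE columns carry an additional digit, and they were assigned by their trailing replicate number. Intensities were corrected by normexp with negative controls inferred from the detection p-values (offset 16), then quantile normalized on the log2 scale with neqc of limma 3.58.1 in R 4.3.3. The filter kept the 21226 of 45281 probes that were detected (p-value under 0.05) on every array of saline, of KA-SE or of both. Groups were compared by limma, two-sided, adjusted by Benjamini-Hochberg over these probes, at a threshold of 0.05. No permutation p for a single probe can fall below 0.1 with 3 against 3 arrays, so the permutation threshold of the methods was not used. Genes are represented by their brightest tested probe. Where a probe was undetected on all arrays of a group, a fold is a lower bound against the lowest detected signal of each array. Slide and scan batches were not analysed here. The procedure was tested on simulated data.

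Of all probes, 34885 had 1 gene in the platform annotation, 18 several and 10378 none listed. Symbols were updated through the RefSeq table of GRCm38.p6, which also gave the promoters. The members and the 11 gene lists were chosen with earlier results of these data known. By rule, the text names all probes of the 3 genes, of each list the genes called and up to 4 with the smallest p, and the 5 genes most like each member. Defining cell type markers are named as well. Alternatives covered background correction, scaling, the filter, the score table, the choice of probe, array weights, a replicate block and each array left out.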

Additional observations from a re-analysis of the deposited data

How the results depend on the processing

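Gfap and Vim were higher and the difference at the detected Nes probe negative under every alternative run on the log2 scale, and no direction reversed. The main Nes difference of -0.07 had an SE of 0.08 and the alternatives use the same arrays, so its sign is not read as a change. With each array left out in turn, the log2 difference ranged from 1.78 to 2.04 for Gfap, from 1.24 to 1.84 for Vim and from -0.12 to -0.02 for Nes. The mean of both Gfap probes gave 2.08. The authors' processed table gave 0.91 for Gfap and 0.79 for Vim on its own scale, whose log base and offset are unknown, so they are not set against these values. The number of probes called was 49, and it was 78 with median scaling, 9 with the processed table, 0 in limma with no filter on dim probes (3000 at an unadjusted p under 0.05), 89 with array weights and 4 to 85 with each array left out (85 when KA-SE replicate 1 was omitted, 4 when the third array of either group was, and 5 when any other was). With a replicate block, 32 probes were called. Deviations of arrays with the same replicate number correlated at 0.02, 0.18 and 0.24, and whether the number marks a shared batch was not tested. Each group holds every replicate number, so a block cannot change the group differences of the members, and their equal values carry no information on pairing. Among filament linkers, chaperones and modifiers, 1 gene was called, 0 with the processed table or with no filter, and 0 to 1 with each array left out. The cause of these shifts was not tested. The number of arrays, and for Nes and the undetected probes a signal near background, limit what can be resolved.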
